A study of Mus musculus with 24 samples.

Results

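The genes described here are 9 mouse genes whose proteins detect viral-type RNA or act on double-stranded RNA: Ddx58 (which encodes RIG-I), Ifih1, Dhx58, Eif2ak2, Adar, Mavs, Zc3hav1, Tlr3 and Tlr7. They were taken by gene symbol from a table of 54505 genes, and each of the 9 was found once. The 24 libraries came from C57BL/6 mice carrying malignant pleural effusions of LLC, the Lewis lung carcinoma line. On day 11 each mouse received by intrapleural injection PBS, LNP-CDN (lipid nanoparticles carrying 1 µg of cGAMP, the cyclic dinucleotide that activates STING), 30 µg of the anti-PD-L1 antibody 10F.9G2, or both agents, called the combination here. On day 13 RNA was taken from red-cell-depleted cells of the pleural fluid and from enzyme-digested pleural tumor cells, with 3 libraries in each of the 8 groups of tissue and treatment. All mice carried the LLC effusion, so every group, PBS included, is a tumor-bearing state. No label ties a fluid library to a tumor library of one mouse. They give no ages and no tumor clone.

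RIG-I and MDA5, the product of Ifih1, are cytosolic helicases that bind viral-type RNA and signal through MAVS on mitochondria to induce type I interferon, and LGP2, the product of Dhx58, modulates both. Eif2ak2 encodes PKR, a kinase that halts translation when it binds double-stranded RNA. Adar encodes an enzyme that edits adenosines in double-stranded RNA, which keeps self RNA from being sensed by MDA5 and PKR. Zc3hav1 encodes ZAP, which binds CpG-rich viral RNA, and Tlr3 and Tlr7 encode receptors that sense double-stranded and single-stranded RNA in endosomes. Many genes of this group are themselves induced by interferon, while Mavs is usually expressed constitutively.

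Promoter sequence is shown for 5 annotated starts, because those of Ddx58, Ifih1, Eif2ak2 and the third annotated start of Adar hold letters like the interferon-stimulated response element and that of Mavs does not. The sequences are from RefSeq on GRCm38.p6, cover 120 bases before to 50 bases after the start, and read 5′ to 3′ on the gene's strand. Capitals mark GAAANNGAA or GAAANGAAA on either strand, and the long form, which is GAAANNGAA followed by 1 more A. Each match of the long form is thus also a match of GAAANNGAA.
Ddx58 (chr4:40239776-40239945, minus strand): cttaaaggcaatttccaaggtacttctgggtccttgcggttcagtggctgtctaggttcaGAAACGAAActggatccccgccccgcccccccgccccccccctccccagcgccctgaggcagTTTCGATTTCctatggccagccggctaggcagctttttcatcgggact
Ifih1 (chr2:62646206-62646375, minus strand): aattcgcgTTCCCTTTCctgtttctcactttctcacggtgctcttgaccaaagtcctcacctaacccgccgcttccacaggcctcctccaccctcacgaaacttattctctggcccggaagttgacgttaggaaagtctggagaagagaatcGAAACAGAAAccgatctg
Eif2ak2 (chr17:78882523-78882692, minus strand): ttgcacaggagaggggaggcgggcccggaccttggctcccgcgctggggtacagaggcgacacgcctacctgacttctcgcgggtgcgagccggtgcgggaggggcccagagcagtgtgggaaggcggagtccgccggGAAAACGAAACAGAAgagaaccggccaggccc
Adar, start 3 (chr3:89730598-89730767, plus strand): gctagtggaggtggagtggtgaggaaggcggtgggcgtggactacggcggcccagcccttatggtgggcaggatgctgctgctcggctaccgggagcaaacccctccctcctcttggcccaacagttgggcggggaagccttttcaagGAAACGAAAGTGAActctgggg
Mavs (chr2:131233943-131234112, plus strand): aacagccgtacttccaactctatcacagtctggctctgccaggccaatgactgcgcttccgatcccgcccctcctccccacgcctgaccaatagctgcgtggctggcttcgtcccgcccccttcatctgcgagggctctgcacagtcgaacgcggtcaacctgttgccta

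RefSeq promoters of 300 bases, 250 before and 50 after the start, were found for 7 of the 9 genes, 9 promoters in all. Dhx58 and Tlr7 were not matched. The long form was present in Ddx58 (bases 3 to 12 of the transcript, on the minus strand relative to the gene), Ifih1 (bases 33 to 42) and Eif2ak2 (bases 19 to 28), and in 3.44% of 32851 mouse promoters of the same length. The third start of Adar held GAAANGAAA at bases 29 to 37, running into GAAANNGAA at bases 34 to 42. GAAANNGAA without the added A was also present in Ifih1 at positions -112 to -104 on the minus strand relative to the gene, and in Eif2ak2 at bases 25 to 33. Adar start 3 held it further upstream as well, outside the printed stretch. Ddx58 held a further GAAANGAAA at positions -60 to -52, counted back from its start. The shorter forms were searched after the promoters had been seen, and are in 3.17% (GAAANGAAA) and 8.56% (GAAANNGAA) of promoters. TTCNNNGAA, the pattern of the interferon-gamma-activated site, is its own reverse complement and is in 8.30% of promoters. Among the 9 promoters it was present at the third start of Adar (bases 23 to 31) and in Eif2ak2 (positions -178 to -170). None of these 4 patterns was in the windows of Mavs, Zc3hav1, Tlr3 or the other 2 Adar starts. Zc3hav1 and Tlr3, whose promoters are not printed, nevertheless rose with LNP-CDN in fluid, as given below, while Mavs did not. A match describes letters and not a bound site.

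Levels are FPKM, the unit of the deposited table, in which fragments are divided by gene length and library size, so that genes can be compared per length. The reads recovered from the table amount to 14584438 to 26888253 per library, and the 9 genes had 142 to 5776 reads per library. Each gene's coefficient of variation over the 3 libraries of a group was 8.26% at the median and ranged from 0.315% to 45.3%. Changes are log2 differences of FPKM + 1 with standard errors, tested with limma over all genes with Benjamini-Hochberg adjustment, and "rose" or "fell" means an adjusted p under 0.05. Adding 1 understates the change of a low gene. Exact permutation of 3 libraries against 3 cannot give a p below 0.1, so the calls rest on variances moderated across genes.

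Some libraries stand apart from their group or differ from others in ways the treatments do not name. The Y-linked gene Ddx3y was at 21.6 to 23.6 FPKM in the 3 fluid libraries with anti-PD-L1 and at no more than 0.0283 FPKM in every other fluid library. In tumor it was at 3.27 to 3.44 FPKM with anti-PD-L1, at 3.55 FPKM in PBS replicate 1 and at no more than 0.0205 FPKM in the rest. Xist, the X-linked RNA of female cells, was at 8.18 to 20.0 FPKM in the fluid libraries with anti-PD-L1 against 53.5 to 71.7 FPKM with PBS, while in tumor it was at 63.3 to 72.4 FPKM beside the Y-linked reads. In fluid, the sex of the mice or the identity of the libraries cannot be told apart from treatment with the antibody alone. In tumor the Y-linked reads are shared by 1 PBS library, and their part in the results was not tested. In combination tumors Ddx3y was at no more than 0.00774 FPKM. Between combination and antibody-only tumors, the sex of the mice or the identity of the libraries thus cannot be told apart from treatment. Tlr7 is on the X chromosome. The defining markers of macrophages were abundant in fluid, with the 10 listed genes summing to 5330 to 5484 FPKM under PBS, against 909.9 to 994 FPKM in tumor. Epithelial markers had the opposite order, at 37.2 to 43.9 and 189 to 238 FPKM for 5 genes. In fluid, LNP-CDN libraries had lower sums than PBS for neutrophil markers (893 to 3018 against 3410 to 5308 FPKM, 8 genes), B cell markers (3.73 to 7.20 against 42.1 to 84.7 FPKM, 6 genes) and conventional dendritic cell markers (31.5 to 35.4 against 69.3 to 74.7 FPKM, 6 genes), and higher ones for macrophage markers (5540 to 7939 FPKM). Endothelial markers were higher as well (9.86 to 14.7 against 6.66 to 8.70 FPKM, 5 genes). The combination had neutrophil and B cell sums of 879 to 1977 and 5.32 to 31.8 FPKM. Of the cell type lists in this paragraph, Emcn (endothelial) was at 0 in all LNP-CDN and all combination libraries of fluid, and no other marker of these lists was at 0 in all libraries of a group. In bulk RNA, a change in the share of a cell type and a change of RNA per cell cannot be told apart, and the part of cell composition in the results below was not tested.

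In PBS-treated mice Dhx58 and Zc3hav1 had the highest levels in fluid cells, at 41.0 ± 4.71 and 34.0 ± 0.879 FPKM (mean ± SD, n = 3), and their libraries did not overlap. Tlr7 and Eif2ak2 followed at 24.3 ± 4.21 and 23.2 ± 2.95 FPKM, and these neighbours overlapped. Eif2ak2 also overlapped Adar, at 20.3 ± 1.36 FPKM. Ddx58 and Ifih1 overlapped as well, at 12.2 ± 1.49 and 11.2 ± 0.954 FPKM. Mavs lay at 8.62 ± 0.437 FPKM and Tlr3 was the lowest at 3.62 ± 0.299 FPKM.

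The order differed in PBS-treated tumors. Zc3hav1 was highest there at 22.6 ± 2.40 FPKM, followed by Eif2ak2 at 17.5 ± 2.12 and Mavs at 8.36 ± 0.942 FPKM. Adar, Ddx58, Tlr7 and Dhx58 came next at 6.87 ± 0.290, 6.12 ± 0.0358, 3.98 ± 0.235 and 2.50 ± 0.237 FPKM, each separated from the next. Tlr3 and Ifih1 were lowest and overlapped, at 1.60 ± 0.130 and 1.41 ± 0.189 FPKM. Dhx58 thus ranked first in fluid and seventh in tumor.

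**Figure D1:**
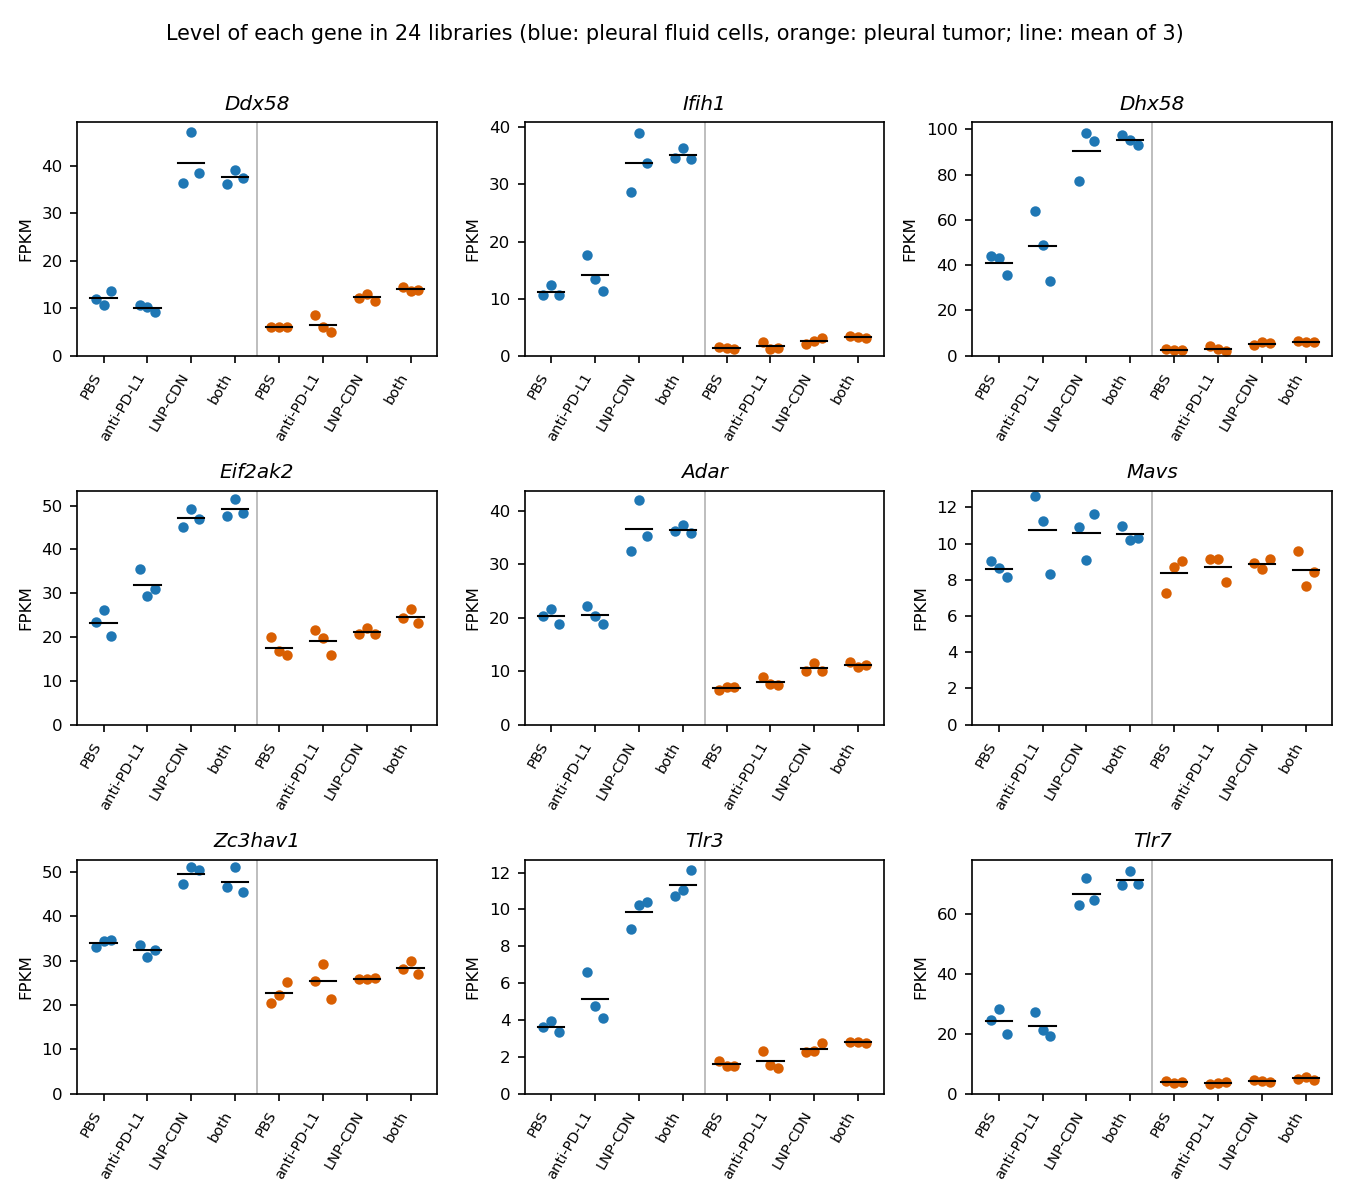
FPKM of the 9 genes in each of the 24 libraries, by treatment, with pleural fluid cells in blue and pleural tumor in orange; each point is a library and each line the mean of 3. In fluid, LNP-CDN and the combination lie above PBS for every gene but with a small distance for Mavs, and the tumor levels of Ifih1, Dhx58 and Tlr7 are far below those in fluid.

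LNP-CDN raised 8 of the 9 genes in fluid cells, against 13.7% of the 13518 genes tested that rose in this comparison. The largest changes were in the helicase sensors Ddx58 and Ifih1 and the endosomal receptors Tlr7 and Tlr3, and Mavs did not pass the test. The median change of the 9 genes was 1.12 on the log2 scale, against 0.00199 over all genes tested. The 3 LNP-CDN libraries were above the 3 PBS libraries for all 9 genes, as for 23.9% of genes tested.

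Ddx58 (chr4:40203773-40239828, minus strand, GRCm38) was at 11.98, 10.8 and 13.7 FPKM in the 3 PBS fluid libraries and at 36.3, 47.2 and 38.6 FPKM with LNP-CDN. Every LNP-CDN library lay well above every PBS library, and the mean level was 3.35 times that of PBS. The log2 change was 1.66 ± 0.11 (adjusted p = 1.56e-05). Ifih1 (chr2:62595798-62646255, minus strand) was at 10.6, 12.3 and 10.7 FPKM with PBS and 28.7, 39.1 and 33.7 FPKM with LNP-CDN. Its groups were likewise apart although the LNP-CDN libraries spread widely, with a log2 change of 1.505 ± 0.15 (adjusted p = 1.11e-04). The third helicase gene, Dhx58 (chr11:100694884-100704271, minus strand), rose from 44.1, 43.3 and 35.5 to 77.3, 98.4 and 94.98 FPKM, with the LNP-CDN replicate 1 the lowest of its group. Its log2 change was 1.12 ± 0.19 (adjusted p = 0.00241), on the highest level of the 9 genes. Exons of Dhx58 share 141 bases with the antisense gene Dhx58os, whose reads cannot be separated without strand and which had at most 74 reads in a library.

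The genes of the RNA-binding effectors, PKR, ADAR1 and ZAP, also rose. PBS fluid libraries held Eif2ak2 (chr17:78852564-78882573, minus strand) at 23.4, 26.1 and 20.2 FPKM and LNP-CDN libraries at 45.2, 49.2 and 46.8 FPKM. The groups were far apart and the mean was 2.03 times that of PBS, a log2 change of 1.00 ± 0.10 (adjusted p = 1.11e-04). Exons of Eif2ak2 share 174 bases with Gm26637, which was between 0.410 and 3.37 FPKM in all libraries. Adar (chr3:89715022-89753446, plus strand) was at 20.4, 21.6 and 18.9 FPKM with PBS and 32.6, 42.0 and 35.3 FPKM with LNP-CDN, where replicate 2 was the highest. This was a log2 change of 0.81 ± 0.09 (adjusted p = 2.82e-04). Its exons overlap Chrnb2, a nicotinic receptor subunit gene on the opposite strand, over 1365 bases, and Chrnb2 was between 0.175 and 1.76 FPKM in all libraries. Zc3hav1 (chr6:38305286-38354603, minus strand) changed from 33.0, 34.4 and 34.6 to 47.2, 51.1 and 50.4 FPKM, with tight groups. It had the smallest change of the 8 genes that rose, 0.53 ± 0.06 (adjusted p = 3.57e-04). Differences between the 9 genes in the size of the change were not tested.

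Both endosomal receptors rose. Tlr7 (chrX:167304929-167330558, minus strand) was at 24.7, 28.2 and 19.8 FPKM with PBS and 63.2, 71.9 and 64.8 FPKM with LNP-CDN, so that it ranked second of the 9 genes after treatment. The log2 change was 1.43 ± 0.14 (adjusted p = 1.11e-04). Plasmacytoid dendritic cells are known for high Tlr7. Their markers summed to 3.81 to 4.85 FPKM with PBS and 2.18 to 3.53 FPKM with LNP-CDN. B cell markers were lower as given above, and macrophage markers were higher, at 5540 to 7939 against 5330 to 5484 FPKM. The part of these sums in the change of Tlr7 was not tested. Tlr3 (chr8:45395665-45411080, minus strand) was low but clearly separated, at 3.61, 3.93 and 3.33 FPKM with PBS and 8.95, 10.2 and 10.4 FPKM with LNP-CDN. Its log2 change was 1.23 ± 0.13 (adjusted p = 1.67e-04).

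The adaptor gene Mavs (chr2:131234063-131248025, plus strand) had the smallest estimate of the 9 genes. The PBS libraries were at 9.04, 8.64 and 8.17 FPKM and the LNP-CDN libraries at 10.9, 9.12 and 11.7 FPKM, so the groups did not overlap but came within 0.0802 FPKM of each other. The log2 change was 0.26 ± 0.13 (adjusted p = 0.161), with a 95% interval of -0.02 to 0.54.

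**Figure D2:**
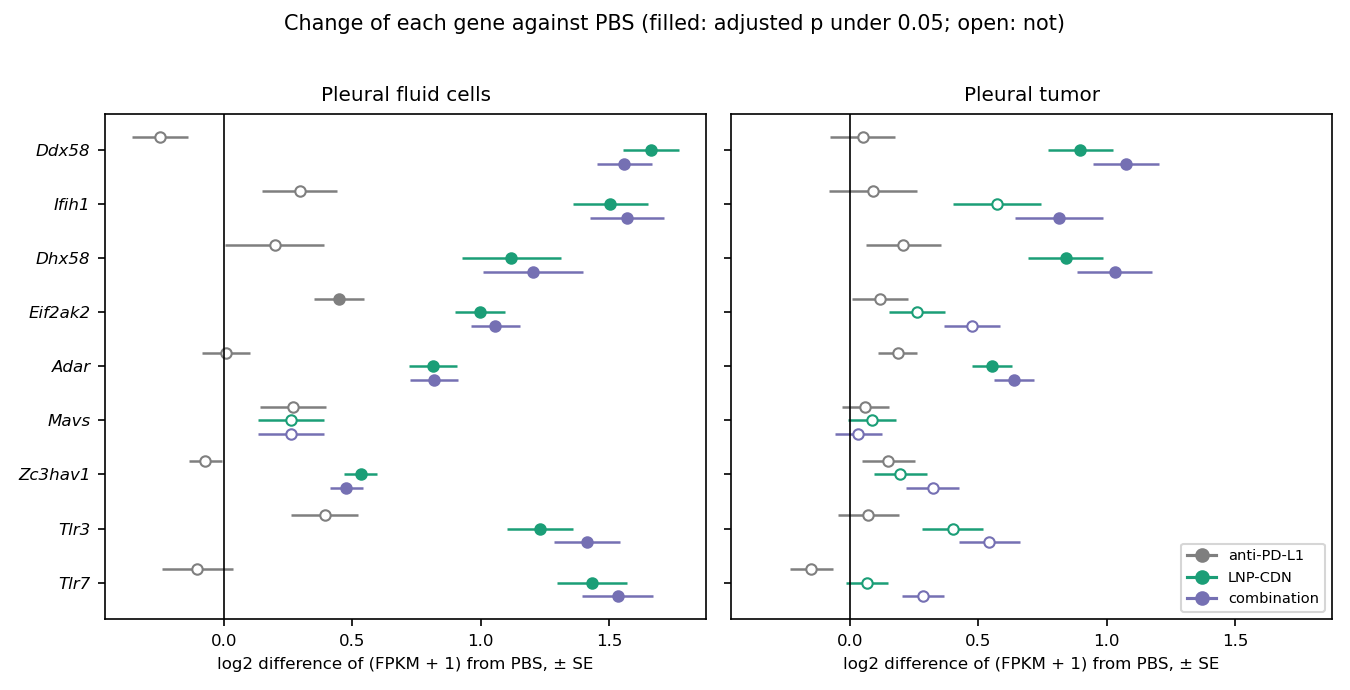
Log2 difference of FPKM + 1 from PBS for the 9 genes (rows) with anti-PD-L1, LNP-CDN or the combination, in fluid (left) and tumor (right); points are estimates from 3 libraries against 3, bars are ± 1 standard error, and filled points have an adjusted p under 0.05. In fluid 8 genes are filled for LNP-CDN and for the combination, in tumor 3 and 4, and Eif2ak2 is the only gene filled for anti-PD-L1.

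Anti-PD-L1 alone gave 1 call among the 9 genes in fluid. Eif2ak2 rose, against 5.47% of genes tested that rose. Its libraries were at 35.4, 29.5 and 31.0 FPKM, all above the 20.2 to 26.1 FPKM of PBS, with a log2 change of 0.45 ± 0.10 (adjusted p = 0.0142). The call was lost without PBS replicate 3 (adjusted p = 0.0534) and when only the 6 libraries compared were fitted (adjusted p = 0.0739). Tlr3 was at 6.59, 4.75 and 4.10 FPKM, also above every PBS library (17.4% of genes tested lay apart upward), and its change of 0.39 ± 0.13 did not pass (adjusted p = 0.0710). Ddx58 was the only gene with every antibody library below every PBS library (16.1% of genes tested), at 10.7, 10.3 and 9.22 FPKM, with a change of -0.25 ± 0.11 (adjusted p = 0.151).

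Several marker sums of the antibody libraries in fluid lay apart from PBS. Neutrophil markers summed to 659 to 1100 FPKM against 3410 to 5308 FPKM, B cell markers to 7.04 to 9.36 against 42.1 to 84.7, NK cell markers to 2.63 to 8.78 against 14.4 to 17.4 (5 genes) and monocyte markers to 1071 to 1373 against 1443 to 1770 FPKM (6 genes). Each of these sums was lower with the antibody, as were those of T cell, endothelial and plasmacytoid dendritic cell markers. Epithelial markers lay apart in the other direction, at 45.2 to 79.2 against 37.2 to 43.9 FPKM (5 genes). The part of these sums in the call of Eif2ak2 was not tested.

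The 3 antibody libraries of fluid spread widely for several genes. Their coefficient of variation was 31.6% for Dhx58, 25.1% for Tlr3, 22.9% for Ifih1 and 20.4% for Mavs, for each of these the highest of the 4 fluid groups. Replicate 1 was the highest of its group for all 9 genes. For Dhx58 the libraries were at 63.8, 48.7 and 33.1 FPKM and for Ifih1 at 17.7, 13.4 and 11.4 FPKM, so that Dhx58 reached both sides of PBS. Macrophage markers summed to 11525 FPKM in replicate 1, 7097 FPKM in replicate 2 and 5275 FPKM in replicate 3, and the part of this in the spread was not tested. Without replicate 3, Mavs (adjusted p = 0.0221) and Tlr3 (adjusted p = 0.0233) also passed.

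In fluid the combination raised 8 of 9 genes over PBS, against 15.6% of genes tested. Mavs, the exception, was at 0.26 ± 0.13 (adjusted p = 0.149) and passed when only the 6 libraries compared were fitted (adjusted p = 0.0139). Tlr7 reached 69.7, 74.5 and 70.1 FPKM, 2.95 times the PBS mean, with a log2 change of 1.53 ± 0.14 (adjusted p = 6.83e-05). Ddx58 was at 36.3, 39.2 and 37.4 FPKM and Ifih1 at 34.6, 36.4 and 34.5 FPKM, with changes of 1.56 ± 0.11 and 1.57 ± 0.15. The combination libraries lay close together, with Dhx58 at 97.3, 95.4 and 92.9, Eif2ak2 at 47.6, 51.5 and 48.2 and Adar at 36.3, 37.4 and 35.9 FPKM. LNP-CDN and the combination were compared with the same PBS libraries.

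Direct comparison of the combination with LNP-CDN in fluid gave no call among the 9 genes with limma, none at an unadjusted p under 0.05 and none with limma-voom, while 0% of all genes tested were called higher or lower. The estimates ran from -0.10 ± 0.11 for Ddx58 (95% interval -0.34 to 0.13) to 0.18 ± 0.13 for Tlr3 (95% interval -0.10 to 0.47). Tlr3 was the only gene whose combination libraries, at 10.7, 11.1 and 12.1 FPKM, did not overlap LNP-CDN, as for 6.11% of genes tested. Against anti-PD-L1 alone, the combination raised 8 of 9 genes (18.4% of genes tested), from 0.55 ± 0.06 for Zc3hav1 to 1.81 ± 0.11 for Ddx58. Mavs was at -0.01 ± 0.13 in that comparison (95% interval -0.29 to 0.27).

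A test of non-additivity asked whether the combination differed from the sum of both agents' log2 changes. In fluid no gene of the 9 passed with limma or limma-voom, against 2.46% of genes tested that passed in either direction. That share is unsteady, since it rests on 333 genes and their number ran from 7 to 1131 with 1 library left out. Eif2ak2 alone had an unadjusted p under 0.05, with an estimate of -0.39 ± 0.14 (adjusted p = 0.149). It is the gene that rose with each agent alone, by 0.45 with anti-PD-L1 and 1.00 with LNP-CDN, and it reached 1.06 with both. The call with anti-PD-L1 was lost in some alternatives, as given above, and rests on the fluid libraries with Y-linked reads.

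In tumors LNP-CDN raised 3 of the 9 genes, Ddx58, Dhx58 and Adar, against 1.89% of the 13173 genes tested. For 7 genes the LNP-CDN libraries lay above all PBS libraries, as for 13.3% of genes tested, with Mavs and Tlr7 as the exceptions. The median change of the 9 genes was 0.40, and that of all genes 0.01.

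Ddx58 was at 6.15, 6.08 and 6.13 FPKM in PBS tumors, the tightest of the 9 genes there, and at 12.3, 13.0 and 11.6 FPKM with LNP-CDN. The level was 2.01 times that of PBS, a log2 change of 0.90 ± 0.13 (adjusted p = 0.0116). Dhx58 was at 2.76, 2.29 and 2.46 FPKM with PBS and 4.56, 5.91 and 5.39 FPKM with LNP-CDN, again without overlap. Its ratio of means, 2.11, was close to the 2.20 of fluid although its level was far lower. The log2 change was 0.84 ± 0.15 (adjusted p = 0.0180), and it no longer passed without PBS replicate 2 (adjusted p = 0.0644), LNP-CDN replicate 2 (adjusted p = 0.0560) or LNP-CDN replicate 3 (adjusted p = 0.0756), or with no filter on low values (adjusted p = 0.0647). Adar rose from 6.54, 6.98 and 7.08 to 10.0, 11.6 and 10.1 FPKM, a change of 0.55 ± 0.08 (adjusted p = 0.0111). Without PBS replicate 1, the library with Ddx3y reads, the same 3 genes passed.

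Ifih1, Tlr3, Eif2ak2 and Zc3hav1 lay above PBS in every LNP-CDN tumor library but did not pass. Ifih1 was at 1.60, 1.41 and 1.22 FPKM with PBS and 2.04, 2.64 and 3.14 FPKM with LNP-CDN, a change of 0.57 ± 0.17 (adjusted p = 0.0904), and passed with limma-voom on recovered reads (adjusted p = 0.0471). For Tlr3 the change was 0.40 ± 0.12 (adjusted p = 0.0855), for Eif2ak2 0.26 ± 0.11 (adjusted p = 0.200) and for Zc3hav1 0.20 ± 0.10 (adjusted p = 0.302). Tlr7 had the smallest change of the 9 genes. Its LNP-CDN libraries, at 4.55, 4.32 and 3.79 FPKM, overlapped the PBS libraries at 4.19, 3.73 and 4.03 FPKM, with a change of 0.07 ± 0.08 (95% interval -0.12 to 0.25). Mavs was at 0.09 ± 0.09 (95% interval -0.11 to 0.29).

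In tumors the combination raised Ddx58, Ifih1, Dhx58 and Adar, 4 of 9 genes against 0.881% of genes tested. For 8 genes, Mavs excepted, its libraries lay above all PBS libraries (11.3% of genes tested). Ddx58 was at 14.6, 13.6 and 13.8 FPKM, a change of 1.07 ± 0.13 (adjusted p = 0.00383). Dhx58 at 6.44, 5.90 and 6.11 FPKM and Adar at 11.7, 10.8 and 11.3 FPKM had changes of 1.03 ± 0.15 and 0.64 ± 0.08 (adjusted p = 0.00781 and 0.00383). Without combination replicate 1 Dhx58 no longer passed (adjusted p = 0.0531). Ifih1, at 3.40, 3.19 and 3.10 FPKM, passed narrowly with 0.81 ± 0.17 (adjusted p = 0.0490) and failed whichever of the 6 libraries was left out, with adjusted p-values from 0.0755 without PBS replicate 1 to 0.173 without combination replicate 1. With the replicate number as a block it also failed (adjusted p = 0.0867). Tlr3 (0.54 ± 0.12, adjusted p = 0.0538) and Eif2ak2 (0.47 ± 0.11, adjusted p = 0.0658) were just short of the threshold and passed with limma-voom, and Eif2ak2 also passed without PBS replicate 1 (adjusted p = 0.0480).

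Combination tumors also lay above antibody-only tumors for 4 genes, Ddx58, Dhx58, Adar and Tlr7, against 1.16% of genes tested. Tlr7 was at 4.96, 5.70 and 4.59 FPKM with the combination and 3.31, 3.43 and 3.75 FPKM with anti-PD-L1, a change of 0.43 ± 0.08 (adjusted p = 0.0304). Ddx58 changed by 1.02 ± 0.13, Dhx58 by 0.82 ± 0.15 and Adar by 0.45 ± 0.08. When only those 6 libraries were fitted no gene of the 9 passed, and the count ranged from 0 without combination replicate 1 to 5 without anti-PD-L1 replicate 1. Ddx58 was the 1 gene left when anti-PD-L1 replicate 2 or 3, or combination replicate 2 or 3, was left out. With the replicate block Tlr7 did not pass (adjusted p = 0.0650). Of the libraries compared here only the antibody-only ones held Y-linked reads. Sex or library identity therefore cannot be told apart from treatment in these calls.

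Anti-PD-L1 alone gave no call among the 9 genes in tumor with limma or limma-voom, as for 0% of all genes tested. Adar alone had an unadjusted p under 0.05, at 0.19 ± 0.08 (adjusted p = 0.784), and its libraries, at 8.96, 7.58 and 7.37 FPKM, lay above those of PBS (3.91% of genes tested). Antibody replicate 1 was the highest of its group for 7 of the 9 genes, with Ddx58 at 8.51 FPKM against 6.00 and 5.02 FPKM. Combination against LNP-CDN gave no call among the 9 genes with limma or limma-voom (0% of genes tested). Tlr7 had the only unadjusted p under 0.05, with 0.22 ± 0.08 (95% interval 0.04 to 0.40). Ddx58, Eif2ak2, Zc3hav1 and Tlr7 had combination libraries above all LNP-CDN libraries, as for 8.4% of genes tested. Non-additivity in tumor gave no call with either tool (0% of genes tested), and Tlr7 had the only unadjusted p under 0.05, at 0.37 ± 0.12 (adjusted p = 0.988).

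Fluid and tumor differed in the level of these genes in PBS-treated mice. With PBS, 8 of 9 genes were lower in tumor, against 37.9% of 15222 genes tested. Dhx58 had the widest gap, with a fluid mean 16.4 times that of tumor and a log2 difference, tumor minus fluid, of -3.58 ± 0.18. Ifih1 (-2.34 ± 0.16) and Tlr7 (-2.33 ± 0.12) followed, then Adar (-1.44 ± 0.09), Ddx58 (-0.88 ± 0.12), Tlr3 (-0.83 ± 0.12), Zc3hav1 (-0.57 ± 0.09) and Eif2ak2 (-0.38 ± 0.11), all with adjusted p of 0.00282 or less. Mavs was 1.03 times as high in fluid, a difference of -0.04 ± 0.12 (95% interval -0.28 to 0.20).

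The gap held under each treatment, with 8 genes lower in tumor with LNP-CDN (38.8% of genes tested), 8 with anti-PD-L1 (36.1%) and 9 with the combination (39.2%). Tlr7 reached 15.8 times the tumor level in fluid after LNP-CDN and Dhx58 17.1 times. Scaling to total reads instead of the deposited scaling moved the median of all genes upward in tumor by 0.28 to 0.31 in these 4 comparisons. Mavs then changed sign in each of them, Eif2ak2 with PBS was at -0.03 (adjusted p = 0.817), Ddx58 with anti-PD-L1 no longer passed (adjusted p = 0.0867) and Zc3hav1 with anti-PD-L1 changed sign. The difference of Mavs with the combination, -0.27 ± 0.12 (adjusted p = 0.0385), was lost without any 1 of 5 of the 6 libraries, the exception being tumor combination replicate 1. A call of Mavs was gained with LNP-CDN without fluid LNP-CDN replicate 2 (adjusted p = 0.0293) and with anti-PD-L1 without fluid anti-PD-L1 replicate 3 (adjusted p = 0.00152).

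The response to LNP-CDN itself also differed between the tissues. In 1 model of all 24 libraries, the log2 change was smaller in tumor than in fluid for 5 of 9 genes, against 7.4% of 15222 genes tested that were lower. Tlr7 differed most, with 1.43 in fluid and 0.07 in tumor, a difference of -1.37 ± 0.16 (adjusted p = 5.11e-05). Ifih1 (-0.93 ± 0.23), Tlr3 (-0.83 ± 0.18), Ddx58 (-0.77 ± 0.17) and Eif2ak2 (-0.74 ± 0.15) also differed, with adjusted p = 0.0109, 0.00390, 0.00603 and 0.00295. Ifih1 is low in tumor, where adding 1 understates a change, and its difference did not pass with a pseudocount of 0.1 (adjusted p = 0.111) or with limma-voom (adjusted p = 0.139). Tlr7 and Tlr3 were at -1.39 and -0.85 with the pseudocount of 0.1, and both passed. Dhx58 (-0.28 ± 0.25), Adar (-0.26 ± 0.12), Zc3hav1 (-0.34 ± 0.12) and Mavs (-0.17 ± 0.16) did not pass, and Zc3hav1 passed without tumor PBS replicate 1 (adjusted p = 0.0428). Macrophage markers summed to 800.1 to 962 FPKM in LNP-CDN tumors against 909.9 to 994 FPKM in PBS tumors. Plasmacytoid dendritic cell markers, lower with LNP-CDN in fluid, were higher in tumor, at 1.51 to 6.83 against 0.712 to 1.02 FPKM, and NK cell markers were at 0.463 to 1.16 against 0.152 to 0.326 FPKM. The part of these sums in the tissue difference was not tested.

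The combination gave a smaller change in tumor for 4 genes, against 7.17% of genes tested. These were Tlr7 (-1.25 ± 0.16), Tlr3 (-0.87 ± 0.18), Ifih1 (-0.76 ± 0.23) and Eif2ak2 (-0.58 ± 0.15), with adjusted p = 9.70e-05, 0.00289, 0.0340 and 0.0129. The call of Ifih1 was lost in 10 of 12 fits that left out 1 library, the exceptions being fluid PBS replicate 2 and tumor PBS replicate 3, with adjusted p-values up to 0.0786. It was also lost with a pseudocount of 0.1 (adjusted p = 0.310) and with limma-voom (adjusted p = 0.3295). The same held with no filter on low values (adjusted p = 0.0718) and with scaling to total reads (adjusted p = 0.0521). Ddx58 was at -0.48 ± 0.17 (adjusted p = 0.0663) and passed with the replicate block (adjusted p = 0.0390). The effect of anti-PD-L1 gave no call of a tissue difference among the 9 genes with limma or limma-voom, against 5.31% of genes tested in either direction, and Eif2ak2 had the only unadjusted p under 0.05 (-0.33 ± 0.15, adjusted p = 0.216). The 3 treatments share the PBS libraries of each tissue.

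**Figure D3:**
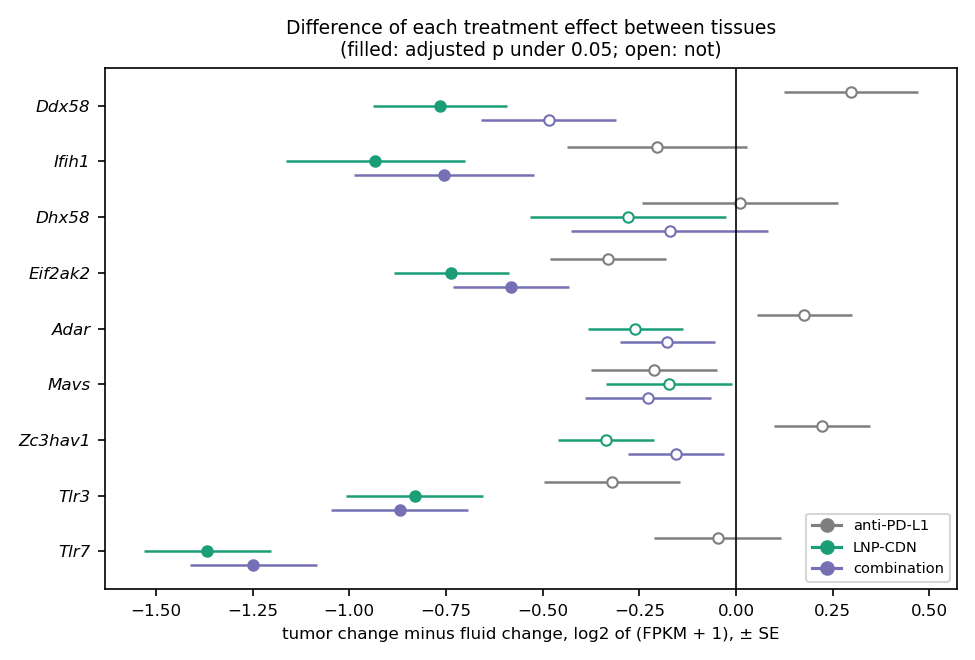
Difference between tumor and fluid in the log2 change from PBS of each of the 9 genes (rows) for anti-PD-L1, LNP-CDN and the combination; points are estimates over 24 libraries, bars ± 1 standard error, and filled points have an adjusted p under 0.05. Tlr7 lies farthest to the left, at -1.37 for LNP-CDN and -1.25 for the combination.

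Across the 12 fluid libraries 8 of the genes moved together, as a description over libraries that share treatments and controls. Pearson's r of log2 (FPKM + 1) was 0.853 to 0.988 over the 28 pairs without Mavs, and 0.274 to 0.593 over the 8 pairs with Mavs. In tumor the pairs without Mavs ranged from 0.397 to 0.982 and those with Mavs from -0.294 to 0.466. The genes most like each of the 9 were found among all genes tested, other members left out. In fluid, Ifih1 was nearest to Ifi203 (r = 0.997), Ifi211 (r = 0.996) and Stat2 (r = 0.994), and Adar to Ifi209 (r = 0.995), Xaf1 (r = 0.995) and Usp18 (r = 0.995). Tlr3 was nearest to Znfx1 (r = 0.991), Mx1 (r = 0.990) and Mndal (r = 0.989). In tumor, Ddx58 was nearest to Tor3a (r = 0.995), Slfn1 (r = 0.993) and Oas3 (r = 0.991), and Dhx58 to Xaf1 (r = 0.994), Phf11d (r = 0.994) and Ifi206 (r = 0.993). The fluid neighbours of Zc3hav1 were Aff1 (r = 0.989), Tdrd7 (r = 0.988) and Ifngr2 (r = 0.986), those of Dhx58 were Cept1 (r = 0.989), Ly6e (r = 0.989) and Ifi211 (r = 0.988), and those of Tlr7 were Gm44861 (r = 0.991), Tmem171 (r = 0.991) and Ifi209 (r = 0.991). In tumor Zc3hav1 was nearest to Cttnbp2nl (r = 0.956), Gpr107 (r = 0.924) and Caprin1 (r = 0.921), and Tlr7 to Gm43351 (r = 0.897), Mmp12 (r = 0.896) and Slu7 (r = 0.887). The fluid neighbours of Ddx58 were H2-Q6, Trim34a and Ifi214, and those of Eif2ak2 were Rnf213, Parp11 and March8. In tumor Ifih1 and Tlr3 shared Sp100 and Mmp13, Eif2ak2 was nearest to Ifi203, Samd9l and Mpeg1, Adar to Apol9a, Lgals3bp and Irf7, and Mavs to Papss2, Epas1 and Trappc10. Mavs was nearest to Plekhb2 (r = 0.936), Calhm2 (r = 0.934) and Pea15a (r = 0.932) in fluid. These values rest on 12 libraries in 4 groups and carry no test.

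Other genes of the same pathways were counted from 6 lists, with LNP-CDN against PBS in fluid first, where 13.7% of all genes tested were higher and 12.3% lower. Of the 13 tested cofactors and regulators of the RIG-I-like receptors, 5 rose and 2 fell, with a list median of 0.02. Ddx60, a helicase linked to RIG-I signalling, rose from 7.04 ± 0.369 to 30.2 ± 6.51 FPKM, a log2 change of 1.94 ± 0.16 (adjusted p = 4.49e-05). Rnf135 (Riplet) and Trim25, ubiquitin ligases that act in RIG-I activation, rose by 1.30 ± 0.15 and 0.78 ± 0.09. Downstream of MAVS, 8 of 15 genes rose and none fell, with a median of 0.27. Irf7, the transcription factor that amplifies type I interferon production, had the largest change of those named here, 2.93 ± 0.24 (adjusted p = 4.84e-05), from 40.1 ± 2.89 to 316 ± 62.1 FPKM. Ikbkg, the regulatory subunit of the IKK complex, and Azi2, an adaptor of TBK1, rose by 0.53 ± 0.07 and 0.50 ± 0.08. The median over all genes tested was 0.00199.

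The endosomal pathway had 6 of 15 genes higher and 1 lower, with a median of 0.56. Tlr9, the receptor for unmethylated CpG DNA, rose from 7.04 ± 2.24 to 46.2 ± 9.12 FPKM (2.58 ± 0.38, adjusted p = 0.00103), Tlr13, a mouse receptor for bacterial ribosomal RNA, by 0.61 ± 0.11, and Slc15a4, an endolysosomal transporter needed for Tlr7 and Tlr9 signalling, by 0.71 ± 0.12. Among 9 other double-stranded RNA binding proteins, with a median of 0.02 and counts close to the share over all genes, 1 rose, the Z-form nucleic acid sensor Zbp1 (1.56 ± 0.17), and 1 fell, Dicer1 (-0.26 ± 0.07), the RNase of microRNA maturation. In the PKR axis of eIF2alpha phosphorylation, Eif2ak2 left out, 1 of 11 genes was higher and 3 were lower, with a median of -0.10. Ddit3, a target gene of that axis, rose by 1.15 ± 0.14. The inhibitor Dnajc3 (-0.57 ± 0.08) and the endoplasmic reticulum kinase Eif2ak3 (-0.58 ± 0.09) fell. Of 10 cofactors and relatives of ZAP, 3 rose and 1 fell, with a median of 0.10, among them Parp12 (1.25 ± 0.15) upward and the exosome subunit Exosc5 (-0.42 ± 0.08) downward.

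**Figure D4:**
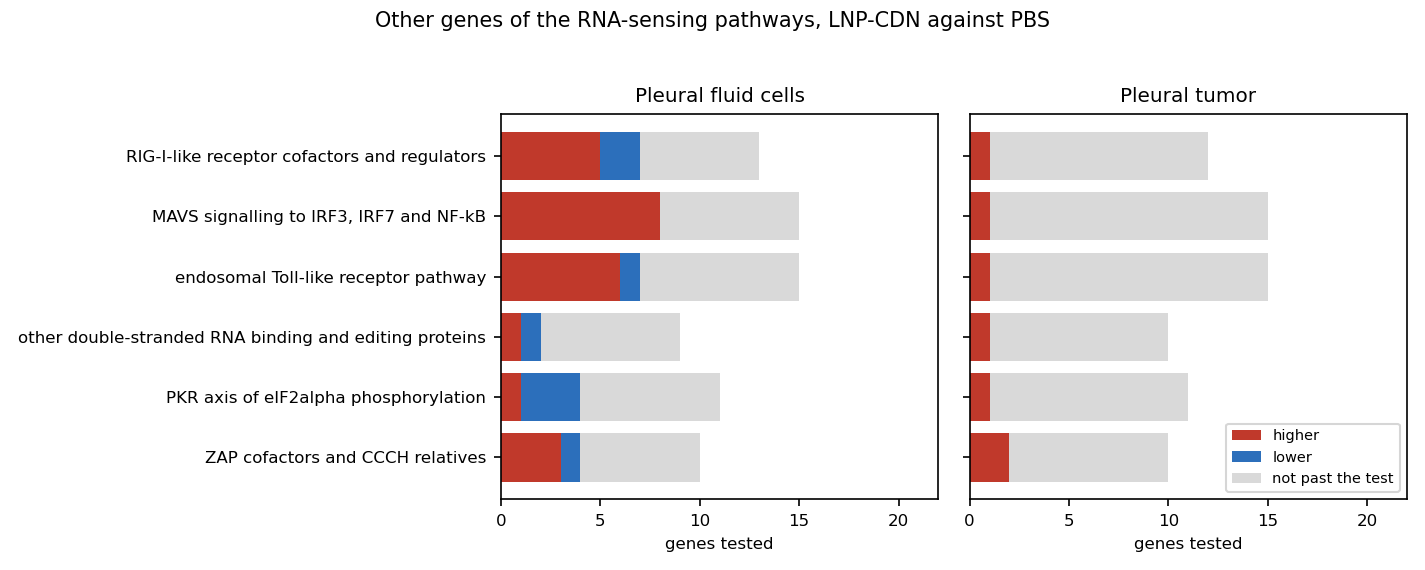
Number of genes tested in 6 lists of RNA-sensing pathway genes that were higher (red), lower (blue) or not past the test (grey) with LNP-CDN against PBS, in fluid (left) and tumor (right). In fluid 8 of 15 genes downstream of MAVS were higher, and in tumor no list had more than 2 higher genes.

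In tumor 7 list entries passed with LNP-CDN, and Trim25 stands in 2 lists. Irf7 rose from 3.13 ± 0.509 to 18.4 ± 5.62 FPKM (2.20 ± 0.29, adjusted p = 0.00940), Zbp1 by 1.35 ± 0.31, Parp12 by 0.71 ± 0.15, Trim25 by 0.53 ± 0.09, Ddit3 by 0.55 ± 0.13 and Slc15a4 by 0.33 ± 0.07, and no gene of the 6 lists fell. In that comparison 1.89% of all genes rose. With the combination, where 0.881% of all genes were higher and 0.304% lower, Irf7 (2.51 ± 0.29), Zbp1 (1.63 ± 0.31), Parp12 (0.88 ± 0.15), Trim25 (0.60 ± 0.09) and Ddx60 (1.13 ± 0.22) rose and Tiparp (-0.43 ± 0.08) fell. The tissue difference of the LNP-CDN effect was higher in tumor for 7.86% and lower for 7.4% of all genes. It passed for Tlr8, which lies beside Tlr7 on the X chromosome, with a difference of -1.15 ± 0.27 (adjusted p = 0.00789). Tlr8 went from 26.9 ± 5.72 to 58.2 ± 5.58 FPKM in fluid and was at 3.97 ± 0.208 and 3.82 ± 0.258 FPKM in tumor. Tlr9 also differed (-2.10 ± 0.43), as did Ikbkg (-0.68 ± 0.10), Tbk1 (-0.52 ± 0.13) and Rnf135 (-0.99 ± 0.18), all with the lower change in tumor. In the PKR axis 4 of 11 genes differed, all the other way, among them Ppp1r15a at 1.18 ± 0.24 and Dnajc3 at 0.73 ± 0.12. Hsp90b1 of the endosomal list (0.52 ± 0.11) and Exosc5 of the ZAP list (0.49 ± 0.09) also had the higher change in tumor. So did 1 of 13 RIG-I-like receptor cofactors and regulators, against 3 with the lower change. Ppp1r15a encodes a regulatory subunit of the phosphatase that reverses eIF2alpha phosphorylation, and was at 25 ± 6.89 FPKM in PBS fluid and 9.56 ± 2.24 FPKM in LNP-CDN fluid.

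With anti-PD-L1 alone in fluid 4 genes of these lists passed, each lower than PBS, against 7.49% of all genes that were lower. The lists' share is thus not above that of all genes. The 4 were Rnf125 (-1.15 ± 0.28), a ubiquitin ligase that acts on RIG-I, Ppp1r15a (-0.74 ± 0.21), Khnyn (-0.57 ± 0.11), a nuclease cofactor of ZAP, and the RNase gene Zc3h12a (-0.33 ± 0.09). With the combination in fluid, 15.6% of all genes were higher and 14.4% lower. Of 13 RIG-I-like receptor cofactors and regulators, 5 rose and 4 fell. Downstream of MAVS 5 of 15 rose and 0 fell, and in the endosomal pathway 7 of 15 rose and 1 fell. In the PKR axis 1 of 11 rose and 4 fell, and of 10 ZAP cofactors and relatives 3 rose and 2 fell. Of 9 other double-stranded RNA binding proteins 1 rose. Tlr9 (2.85 ± 0.38), Irf7 (2.81 ± 0.24) and Ddx60 (1.985 ± 0.16) rose. Ppp1r15a (-1.40 ± 0.21), the helicase gene Ddx3x (-0.64 ± 0.08) and the chaperone gene Hsp90b1 (-0.53 ± 0.09) fell.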

How the data were processed

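Poly-A RNA was sequenced from pleural fluid cells and pleural tumors of mice in 4 treatment groups, using a library kit without strand marks, per the labels' protocols. The authors deposited 1 table of FPKM values. Per the submitters' processing notes, fastp, STAR, featureCounts, DESeq2 and the mm9 build were used, with no role or version given. The table's own coordinates have the same start and end as the GRCm38 annotation GENCODE M21 for 53474 of 54383 shared gene IDs, so positions are given on GRCm38. In the file 27 symbols are stored as dates, none of them a gene reported here.

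Values within 0.01 of a whole read were recovered for 99.92% to 99.966% of entries per library. Genes that did not give whole reads were left out of the fits (9 in fluid, 19 in tumor, 21 in 1 tissue or both). The reads serve for depth and for limma-voom. Genes with at least 1 FPKM in at least 3 libraries were kept (13518 in fluid, 13173 in tumor, 15222 in both together), and all 9 genes passed each filter. Log2(FPKM + 1) was fitted with limma 3.58.1 and a trend of the variance with the mean in R 4.3.3, with 1 model of 12 libraries per tissue and 1 of all 24 for contrasts between tissues, and p-values were adjusted by Benjamini-Hochberg over all genes tested at a threshold of 0.05. The fits of LNP-CDN against PBS were tested on simulated data, in which all genes and groups had the same spread beyond counting noise. In the data the spread differs between genes and groups, so that test does not vouch for single calls. Python 3.11.15 with pandas 2.3.3 and numpy 2.4.6 served for tables, and matplotlib 3.10.9 for figures.

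The alternatives were a pseudocount of 0.1, no filter, scaling to total reads, limma-voom on recovered reads, the replicate number as a block, fits of only the groups compared, and each library left out in turn. The sample titles name mice in the plural and do not say whether mice were pooled within a library. The p-values measure the spread between these samples. The 9 genes and the pathway and marker lists were chosen with earlier results of these data known. All 9 were tested and counted in each comparison, but not every estimate is given in the text. From each pathway list at most 3 genes per comparison, those with the smallest p among the genes past the threshold, could be named.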

Additional observations from a re-analysis of the deposited data

Results flagged for a closer look

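The response to treatment differed between tumor and fluid by a direct test of the interaction (limma, 24 libraries, adjusted over 15222 genes) in 9 results on 5 genes. With LNP-CDN the log2 change in tumor minus that in fluid was -1.37 ± 0.16 for Tlr7, -0.93 ± 0.23 for Ifih1, -0.83 ± 0.18 for Tlr3, -0.77 ± 0.17 for Ddx58 and -0.74 ± 0.15 for Eif2ak2. With the combination it was -1.25 ± 0.16 for Tlr7, -0.87 ± 0.18 for Tlr3, -0.76 ± 0.23 for Ifih1 and -0.58 ± 0.15 for Eif2ak2. Both contrasts use the same PBS libraries. Both differences of Ifih1 failed with a pseudocount of 0.1, at -0.75 for LNP-CDN and -0.50 for the combination. Both also failed with limma-voom, at -0.70 and -0.46. That of the combination failed as well with no filter, with scaling to total reads and in most fits with 1 library left out. For the other 4 genes the calls held in each alternative tried. Groups of 3 libraries are too small for a test of outlying samples.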

How the results depend on the processing

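The 171 results of a gene in a comparison were recomputed under 2304 alternatives in all. Of these, 2149 kept direction and side of the threshold, 66 lost the call, 20 gained one and 69 changed sign, and the results that changed sign had missed the threshold, except tumor against fluid for Mavs with the combination and for Zc3hav1 with anti-PD-L1. Scaling to total reads turned Adar with anti-PD-L1 in fluid (-0.028), Mavs with the combination against LNP-CDN in fluid (0.022), non-additivity of Adar in fluid (0.056) and of Dhx58 (0.023) and Zc3hav1 (0.024) in tumor. It also turned tumor against fluid for Mavs (0.29 with PBS, 0.14 with LNP-CDN, 0.10 with anti-PD-L1 and 0.096 with the combination) and for Zc3hav1 with anti-PD-L1 (0.030). The pseudocount of 0.1 turned Mavs with the combination against LNP-CDN (0.00036, fluid) and the tissue difference of the combination effect for Dhx58 (0.046). Limma-voom turned the latter too (0.066), and Mavs in fluid for the combination against anti-PD-L1 (0.014). The cause was not tested.

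Leaving out 1 library changed signs only among log2 differences that had missed the threshold, with the following lowest and highest values. In fluid with anti-PD-L1 the ranges were Dhx58 -0.021 to 0.44, Adar -0.049 to 0.063 and Tlr7 -0.24 to 0.0095. In fluid with the combination against LNP-CDN the ranges were Ddx58 -0.18 to 0.0052, Ifih1 -0.045 to 0.17, Dhx58 -0.022 to 0.15, Adar -0.074 to 0.10 and Mavs -0.093 to 0.069. In fluid with the combination against anti-PD-L1 Mavs ranged from -0.17 to 0.11. For non-additivity in fluid the ranges were Dhx58 -0.36 to 0.10, Adar -0.083 to 0.094 and Zc3hav1 -0.033 to 0.051. In tumor with anti-PD-L1 the ranges were Ddx58 -0.13 to 0.20, Ifih1 -0.13 to 0.22, Mavs -0.026 to 0.12 and Tlr3 -0.069 to 0.17. In tumor with the combination Mavs ranged from -0.053 to 0.099. In tumor with the combination against LNP-CDN Mavs ranged from -0.13 to 0.013. In tumor with the combination against anti-PD-L1 Mavs ranged from -0.10 to 0.040. For non-additivity in tumor the ranges were Ddx58 -0.019 to 0.31, Dhx58 -0.18 to 0.17, Eif2ak2 -0.023 to 0.19, Zc3hav1 -0.14 to 0.084 and Tlr3 -0.028 to 0.21. For tumor against fluid with PBS Mavs ranged from -0.099 to 0.041. For the tissue difference of the anti-PD-L1 effect the ranges were Dhx58 -0.23 to 0.23 and Tlr7 -0.16 to 0.089.

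The count of the 9 genes past the threshold moved by over 1.5 times in 3 comparisons. With anti-PD-L1 in fluid it was 1, 0 with only the groups compared, and 0 to 3 with 1 library left out. For the combination in tumor it was 4 against PBS and 2 to 4 with 1 library left out. Against anti-PD-L1 in tumor it was 4, 1 with no filter, 0 with only the groups compared and 0 to 5 with 1 library left out.

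Over all genes, calls for LNP-CDN in tumor numbered 442, but 98 with no filter, 165 with the replicate block, 89 with only the groups compared and 24 to 570 with 1 library left out. For the combination in tumor they numbered 156, but 52 with no filter, 264 with limma-voom, 93 with the block and 25 to 136 with 1 library left out. Against anti-PD-L1 they were 204, but 78, 319, 104 and 11 to 320, and 7 with only the groups compared. Anti-PD-L1 in fluid gave 1751 calls, but 984 with only the groups compared and 754 to 1789 with 1 library left out. LNP-CDN in fluid gave 3518, but 2232 to 2840 with 1 library left out. In both the count fell by over 1.5 times without PBS replicate 1 or 3. The tissue difference of the anti-PD-L1 effect gave 808, but 514 with the pseudocount of 0.1, 474 with limma-voom, 513 with only the groups compared and 513 to 1040 with 1 library left out. Non-additivity in fluid gave 333, but 88 with no filter, 217 with the block and 7 to 1131 with 1 library left out. It was 7 without fluid PBS replicate 1 or 3 and 1131 without fluid LNP-CDN replicate 2.

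Deviations of libraries from their group means were correlated between groups. For the same replicate number the correlations were -0.24 to 0.21 in fluid and -0.20 to 0.13 in tumor. For different numbers they covered similar ranges, -0.21 to 0.23 and -0.18 to 0.21. Between tissues they were -0.04 to 0.23 (median 0.025) for the same number and -0.25 to 0.11 (median -0.013) for different numbers. No label gives pairs, so the numbers were not taken as pairs. Whether same-numbered fluid and tumor libraries share a mouse is not known. With the replicate block 166 of the 171 results were unchanged in direction and call, 2 lost the call and 3 gained it. Ifih1 and Tlr7 in tumor were lost, as given with their results, and the tissue difference of Ddx58 with the combination was gained. Mavs was gained in tumor against fluid with LNP-CDN (adjusted p = 0.0472) and anti-PD-L1 (adjusted p = 0.0260).

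With 3 libraries in a group, intervals are wide, and at 142 reads the counting error alone limits the lowest values.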
